A study of Mus musculus with 4 samples.

Results

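The TREM family of receptors and their adaptors was described in naive microglia, the macrophages that live in brain tissue. The members were chosen by symbol: Trem1, Trem2, Trem3, Treml1, Treml2 and Treml4 among the receptors, and the adaptors Tyrobp and Hcst. All 8 had a row in the count files, of 56832 gene rows in all. The 4 libraries form 1 group. It consisted of microglia from female C57BL/6 mice with no transplant and no treatment, taken from dissociated brain with a CD11b-positive gate at low to intermediate CD45. The labels give no age, and they do not say whether each library came from its own animal, so the spread between libraries may be technical. The study set such cells beside graft-derived brain myeloid cells, which were not analysed here, so no contrast between groups was made.

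TREM receptors carry 1 immunoglobulin-type domain outside the cell and a short tail inside it. Those that activate cells pair through a charged residue in the membrane with Tyrobp (the protein DAP12), whose tail holds an immunoreceptor tyrosine-based activation motif (ITAM) that recruits the kinase Syk. Hcst (DAP10) is a related small adaptor that recruits phosphoinositide 3-kinase. In brain, TREM2 is known as a microglial receptor for lipids and lipoproteins, and loss of TREM2 or DAP12 in people causes Nasu-Hakola disease.

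In a mouse annotation of GRCm38, the 6 receptor genes lie in 1 cluster on chromosome 17, all on the + strand, in the order Trem1, Trem3, Treml4, Treml2, Trem2 and Treml1. Tyrobp and Hcst are neighbours on chromosome 7 on opposite strands. No exon of a member overlapped an exon of another annotated gene there. The sequences before the start sites of Trem2, Trem1 and Hcst are shown because these genes span the range from the most abundant receptor to the scarce ones and the scarcer adaptor. Each run holds the 250 bases before the RefSeq start in GRCm38.p6, 5′ to 3′ on the gene's strand. They lie at chr17:48346151-48346400 (+) for Trem2, chr17:48232489-48232738 (+) for Trem1 and chr7:30419855-30420104 (-) for Hcst. Capitals mark the letters GAGGAA on either strand, a form of the site bound by the myeloid factor PU.1. Other forms of that site were not searched, so a run without capitals may still hold such a form.
Trem2: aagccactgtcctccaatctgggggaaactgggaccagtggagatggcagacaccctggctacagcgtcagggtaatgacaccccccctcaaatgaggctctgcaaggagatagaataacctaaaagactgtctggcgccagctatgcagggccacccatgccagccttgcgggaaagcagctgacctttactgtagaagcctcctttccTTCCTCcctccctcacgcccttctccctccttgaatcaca
Trem1: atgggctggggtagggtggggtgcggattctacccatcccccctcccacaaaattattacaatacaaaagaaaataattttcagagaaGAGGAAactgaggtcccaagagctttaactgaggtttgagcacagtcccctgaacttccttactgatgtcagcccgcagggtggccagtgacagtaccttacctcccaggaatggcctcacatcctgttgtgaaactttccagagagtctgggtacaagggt
Hcst: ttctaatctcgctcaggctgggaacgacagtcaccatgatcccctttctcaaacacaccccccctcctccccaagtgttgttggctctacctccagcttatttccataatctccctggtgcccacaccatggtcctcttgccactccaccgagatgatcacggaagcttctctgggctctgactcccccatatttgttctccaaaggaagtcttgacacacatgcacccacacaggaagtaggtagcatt

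The Trem2 match began 40 bases before the start, on the other strand, and the Trem1 match 162 bases before it, on the gene's strand. Of the 5 members found in the promoter table, Trem1, Trem2 and Treml4 held GAGGAA and Hcst and Treml1 did not. Over all 32851 promoters of this length, 23.3% held it. None of the 5 held the AP-1 letters TGACTCA, which 4.46% of promoters held, or the RUNX-type letters TGTGGT, which 14.05% held, on either strand. Treml1 held the E-box CACGTG, found in 6.02% of promoters. No motif searched contains another. Trem2 and Trem1 both carried the PU.1-type letters, while their levels were far apart, as the values below show.

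The libraries held 20360121 to 23292655 reads assigned to genes. Levels are given as CPM, each count scaled by the library's assigned reads, and a count of 0 allows up to 3 counts, which is 0.129 to 0.147 CPM. Replicates 1 to 4 had 14850, 18978, 18431 and 13944 genes with a count. Immediate early genes (17 listed), the transcription factors and regulators first induced by a stimulus, took 0.537%, 5.89%, 5.16% and 0.561% of counts. Summed markers of microglia (10 genes) stood at 57477, 30480.4, 31636 and 60388 CPM. Replicates 2 and 3 were thus high in early genes and low in microglial markers, and these values are set beside the members below.

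Of the 8 members, 5 reached 1 CPM in every library: Trem2, Tyrobp, Treml2, Trem1 and Hcst. Over all gene rows, 14.8% did, and of the 21681 genes with a count in any library 38.8% did. The median of the members' mean levels was 9.72 CPM, against 3.02 CPM over the 21681 genes with a count in any library. Trem3, Treml4 and Treml1 were at or under 3 counts in 1 or more libraries.

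**Figure D1:**
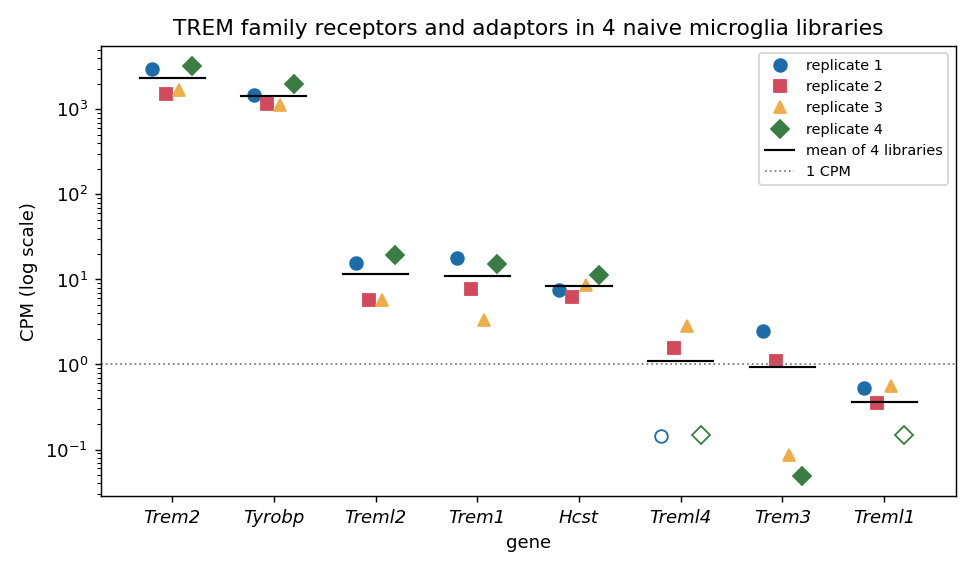
CPM of each member (log axis) in replicates 1 to 4, with the mean as a bar. Open symbols mark a count of 0, drawn at the level of 3 counts, and the dotted line marks 1 CPM. Trem2 and Tyrobp stand above 1000 CPM in every library, and no other member reaches 20 CPM.

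The ITAM adaptor Tyrobp gave 1486, 1146, 1138 and 2002 CPM in replicates 1 to 4, a mean of 1443 ± 407 CPM (SD, n = 4). Replicate 4 was the highest and replicates 2 and 3 nearly equal at the low end. The highest library exceeded the lowest 1.76-fold. Hcst, the adaptor that signals through phosphoinositide 3-kinase, gave 7.57, 6.16, 8.54 and 11.2 CPM, a mean of 8.37 ± 2.13 CPM, from 139 to 228 counts. Its highest library, again replicate 4, exceeded its lowest, replicate 2, 1.82-fold.

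Trem2 gave 2991, 1500.4, 1706 and 3205 CPM in replicates 1 to 4, a mean of 2351 ± 871 CPM (SD, n = 4). Replicates 1 and 4 were high and replicates 2 and 3 low, with a 2.14-fold span. Counting error was small beside that, since the exact 95% Poisson interval was 1484 to 1516 CPM in replicate 2 and 3180.0 to 3229 CPM in replicate 4.

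The other activating receptors were scarce. Trem1, known for amplifying inflammatory responses in neutrophils and monocytes, gave 18.1, 7.71, 3.31 and 15.2 CPM, a mean of 11.1 ± 6.78 CPM (SD, n = 4). Replicate 3 was the lowest, at 77 counts (95% Poisson interval 2.61 to 4.13 CPM), and the span was 5.48-fold. Trem3, a mouse receptor that also signals through DAP12, had 51, 25, 2 and 1 counts, so it was present in replicates 1 and 2 and not above 3 counts in replicates 3 and 4. Treml4, a receptor of certain monocytes and splenic macrophages, had 0, 35, 66 and 0 counts. It was present in replicates 2 and 3, at 1.55 and 2.83 CPM, and so shared only replicate 2 with Trem3. Those are also the libraries with the most genes detected.

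Of the TREM-like receptors without known DAP12 signalling, Treml2, found on B cells and macrophages, gave 15.6, 5.67, 5.75 and 19.3 CPM, a mean of 11.6 ± 6.94 CPM (SD, n = 4). Replicates 1 and 4 were high and 2 and 3 low, a span of 3.40-fold. Treml1, the TREM-like transcript of platelet granules, had 11, 8, 13 and 0 counts, under 1 CPM in every library. The absence of counts in replicate 4 allows up to 0.147 CPM.

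Levels of different genes were compared per length on the TPM scale, with the median length of a gene's annotated coding transcripts. Tyrobp led with 3399 ± 810.2 TPM (SD, n = 4) and Trem2 followed with 2990.1 ± 1003 TPM. They ranked 28 and 32 of 13976 protein-coding genes with a count. Hcst came next at 28.3 ± 6.11 TPM, Trem1 at 5.94 ± 3.52 and Treml2 at 5.16 ± 2.92. Treml4, Trem3 and Treml1 stood at 1.85 ± 2.30, 1.30 ± 1.57 and 0.414 ± 0.292 TPM.

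Neighbours in that order were separated in 4 of 4 libraries at only 2 steps, Trem2 above Hcst and Hcst above Trem1. Tyrobp was above Trem2 in 3 libraries and Trem1 above Treml2 in 2 libraries. The steps among Treml2, Treml4, Trem3 and Treml1 each involved a gene with no more than 3 counts in a library, and their order held in 2 or 3 of 4 libraries. Per length the data therefore give a pair of abundant genes, an intermediate adaptor and 5 scarce receptors whose neighbours in the order overlapped. The place of Hcst rested on the use of length. Without length it stood at 8.37 CPM, below Treml2 at 11.6 and Trem1 at 11.1 CPM, and it was above Trem1 in 1 of 4 libraries.

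Tyrobp and Trem2, the adaptor and its main microglial receptor, stood at similar levels per coding transcript. The log2 ratio of Tyrobp over Trem2 was -0.12, 0.50, 0.30 and 0.21 in replicates 1 to 4, a mean of 0.22 ± 0.26 (SD, n = 4). An exact permutation test that flips the signs of the libraries' ratios (two-sided) gave p = 0.25, adjusted p = 0.27 over 13 pairs. With 4 libraries the smallest p this test can give is 0.13, so no pair could pass 0.05. The ratio rested on the lengths, 580.5 bases for Tyrobp and 1072 for Trem2. With coding length (342 and 747 bases) it was 0.46, and without length -0.67. With the union of all exons it was 2.23, because the annotation holds a Trem2 transcript with a retained intron and the union for Trem2 is 4946 bases. Which transcripts were present was not measured.

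**Figure D2:**
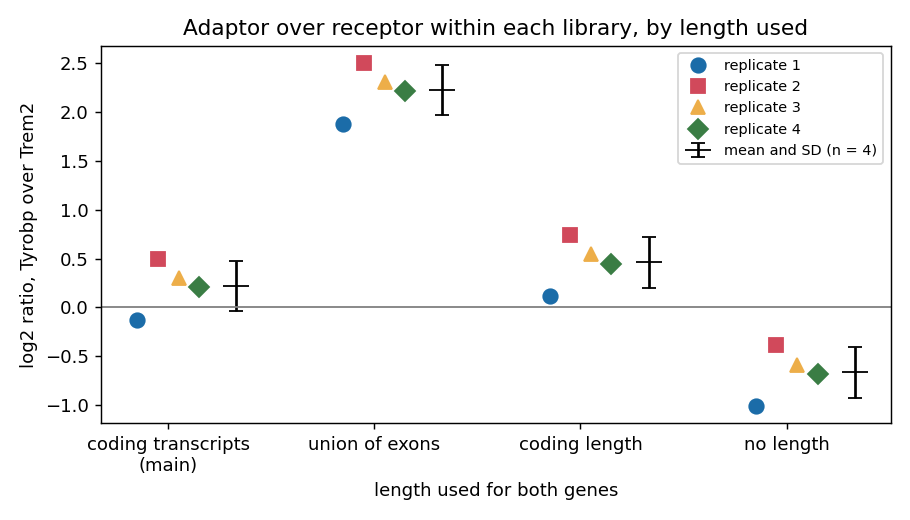
Log2 ratio of Tyrobp over Trem2 within each library (points) with mean and SD, under each of the length choices. The points lie around 0 with coding transcripts, from -0.12 to 0.50, and all lie above 1.8 with the union of exons, which counts a retained intron of Trem2.

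The adaptors differed widely. Tyrobp exceeded Hcst per length in 4 of 4 libraries, with log2 ratios of 7.09, 7.01, 6.53 and 6.96, a mean of 6.90 ± 0.25 (SD, n = 4), or 119-fold. The exact permutation p was 0.13, adjusted p = 0.16. Fcer1g, the ITAM adaptor of Fc receptors, stood at 2763 ± 181 TPM, near Tyrobp. Tyrobp over Fcer1g was 0.27 ± 0.32 on the log2 scale, higher in 3 of 4 libraries (exact permutation p = 0.25, adjusted p = 0.27), and -0.26 with coding length. Which of these adaptors was higher thus turned with the length used, while Hcst was below Tyrobp under each of them.

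Trem2 exceeded each of the other TREM receptors in 4 of 4 libraries. Over Trem1 the log2 ratio was 9.16 ± 0.73 (SD, n = 4), a 574-fold difference per length, and over Treml2 9.30 ± 0.39, each with an exact permutation p of 0.13 and adjusted p = 0.16. The sizes fell to 7.20 and 7.79 with the union of exons. Trem3, Treml1 and Treml4 had libraries at 3 counts or fewer, so no fold is given for them. Hcst exceeded Treml2 by 2.63 ± 0.75 per length in 4 of 4 libraries (exact permutation p = 0.13, adjusted p = 0.16). That order also needs the length, since without it the log2 ratio was -0.28.

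Trem2 was not the only abundant receptor that uses DAP12. Siglech, a sialic acid-binding lectin of mouse microglia, stood at 1033 ± 191 TPM, Clec5a, a C-type lectin, at 434 ± 21.6 and the CD300 family gene Cd300c2 at 423 ± 63.0. Trem2 over Siglech was 1.64, 1.18, 1.39 and 1.73 on the log2 scale in replicates 1 to 4, a mean of 1.49 ± 0.25 (SD, n = 4), higher in 4 of 4 libraries (exact permutation p = 0.13, adjusted p = 0.16). With the union of exons it was 0.20. A sum was taken over 20 receptor genes listed here for DAP12 or DAP10. Trem2 made up 64.4%, 53.5%, 56.7% and 64.3% of its transcripts per length, and Siglech 20.6%, 23.6%, 21.6% and 19.4%. Tyrobp stood at 0.591, 0.755, 0.698 and 0.742 of that receptor sum. These values turned with the length used. With the union of exons Trem2 made up 37.1% ± 5.03 and Siglech 32.1% ± 1.46 (SD, n = 4), and Tyrobp was 1.73 ± 0.147 times the sum. Without length Tyrobp was 0.331 ± 0.0345 of it. These shares describe RNA, and this sum was chosen after the values were seen.

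Trem2 was high and low in the same libraries as the microglial markers. As a share of the summed counts of the 10 microglial markers, which do not include it, Trem2 was 5.20%, 4.92%, 5.39% and 5.31% in replicates 1 to 4. The coefficient of variation was 3.93% on this scale and 37.1% in CPM, so the libraries that differed in CPM overlapped in this ratio. Among the 9075 genes tested for variability below, 8 had a lower coefficient on this scale. None of these 8 was in the marker list, so a steady ratio to the marker sum was not confined to microglial markers. Tyrobp was 2.59%, 3.76%, 3.60% and 3.32% of the marker sum, with a coefficient of 15.7% against 28.2% in CPM. For Hcst the coefficient was 28.9% against 25.4% in CPM, for Trem1 38.7% against 61.2% and for Treml2 28.1% against 59.96%. Among these 5, only Hcst varied more relative to the markers than in CPM. In a bulk sample fewer cells of a type and less RNA per cell cannot be told apart. This ratio was computed after the values were seen and has no test.

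**Figure D3:**
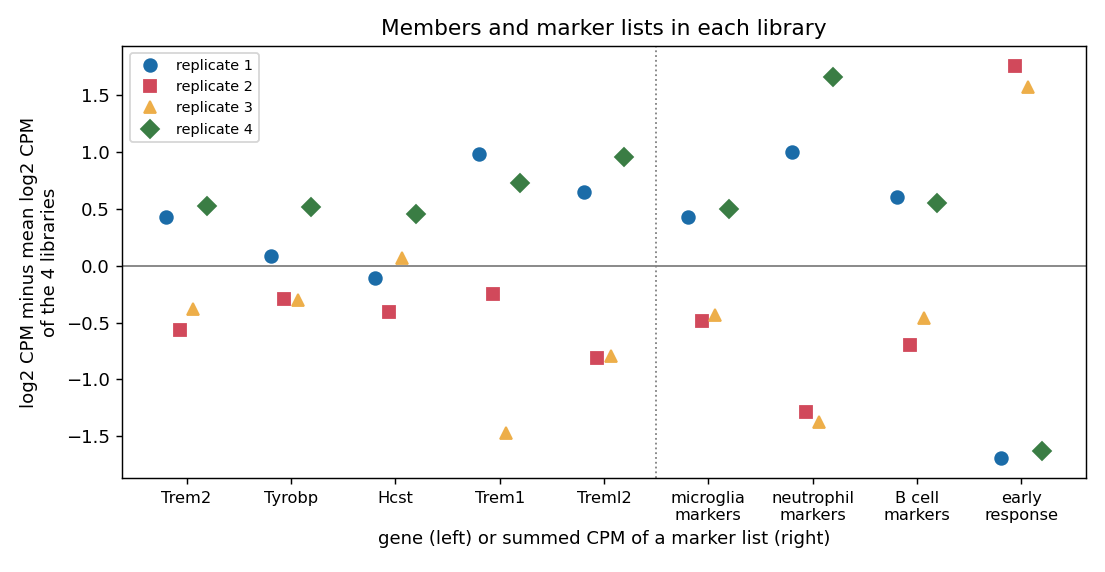
Log2 CPM of the 5 members at 1 CPM or more, and log2 summed CPM of marker lists, each minus its mean over the 4 libraries. Trem2 follows the microglial markers library by library, and Trem1 and Treml2 share their direction in each library while the early response list has the opposite one.

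Markers of other cells that carry TREM genes also differed between libraries. Summed neutrophil markers (13 genes, 11 at 1 CPM or more in every library) ranged from 303 to 2474 CPM, at 1564, 322, 303 and 2474 CPM in replicates 1 to 4. Of these, the calprotectin gene S100a8 gave 480.3, 80.3, 73.4 and 979 CPM, while Ly6g, the surface marker of neutrophils, had 0 counts in replicates 3 and 4. Monocyte markers (10 genes, 4 at that level) summed to 126, 92.6, 91.7 and 215 CPM, and F10 was at 0 in every library. Trem1 was low in the same libraries as both lists, replicates 2 and 3. The part of these cells in the Trem1 level was not tested.

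B cell markers (8 genes, 4 at 1 CPM or more in every library) summed to 803, 324, 384 and 770.5 CPM, high and low in the same libraries as Treml2. Most of the sum came from Ighm. Cd79b, a part of the B cell receptor, gave 79.8, 18.3, 23.4 and 50.8 CPM, high and low in the same libraries as Treml2, and Cd22 gave 36.1, 9.70, 9.83 and 6.43 CPM. Ms4a1 was at 0 in every library and Pax5 at 0 in replicates 2 to 4. Platelet markers (10 genes, 3 at that level) summed to 149, 133, 109 and 83.9 CPM, and Gp1bb was at 0 in every library. The genes in this sum went different ways. Pf4 (22.6, 71.0, 67.6 and 31.9 CPM) was high in replicates 2 and 3. Itgb3 (74.2, 32.4, 11.7 and 24.8 CPM) and Gp9 (48.4, 28.4, 23.4 and 15.4 CPM) were instead highest in replicate 1. Dendritic cell markers (6 genes, 1 at that level) summed to 60.2, 36.4, 30.0 and 102 CPM, with Xcr1 at 0 in every library. Nearly all of the sum in replicate 4 was Cd209a, at 101 CPM. Itgax (34.4, 16.7, 11.5 and 0.147 CPM) and Zbtb46 (11.6, 5.14, 3.18 and 0 CPM) were instead lowest in that library. Markers of T and NK cells (9 genes, 0 at that level) summed to 0.0485, 8.59, 11.3 and 0.0982 CPM. Markers of border-associated macrophages (8 genes, 7 at that level) summed to 280.5, 752, 824 and 423 CPM, high in replicates 2 and 3, where Trem1 and Treml2 were low. Within that list, Cd163 (16.2, 22.2, 24.3 and 32.6 CPM) and Ms4a7 (50.6, 58.7, 71.4 and 83.5 CPM) were instead highest in replicate 4. The part of any of these cells in a member's level was not tested.

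Variability between libraries was tested over all genes by setting each gene's quasi-likelihood dispersion in edgeR against the trend at its expression level. Trem1, Trem2, Treml2, Tyrobp and Hcst passed the filter on low counts. None of the 5 was called at an adjusted p under 0.05, and 0% of the 9075 genes tested were called. At an unadjusted p under 0.05 edgeR gave 390 genes and 0 members, and DESeq2 gave 0 dispersion outliers. The absence of a call is therefore no statement about the members.

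The dispersions themselves describe how the members spread. Hcst lay 2.72 below the trend on the log2 scale, and 92.1% of tested genes had a higher ratio to the trend. It stayed below the trend in each of the 8 other settings of the fit. Trem2 lay 0.61 above the trend, Trem1 0.55 above and Treml2 0.15 above it, and Tyrobp 0.44 below it (-0.44). The side of these 4 depended on single libraries or on the filter. Without replicate 2 Trem2 was at -0.15 and Treml2 at -0.52, without replicate 3 Trem1 was at -1.43 and Treml2 at -0.45, and without replicate 1 Tyrobp was at 0.02. With no filter on low counts Trem1 was at -0.51, Treml2 at -0.74 and Tyrobp at 0.65.

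Some genes had nearly the profile of Trem2 or Tyrobp over the 4 libraries. Likeness was the root mean square difference in log2(CPM + 0.5) after centring each gene, over the 8174 genes whose mean reached 10 CPM. Closest to Trem2 were Rfesd at 0.027, 4931406C07Rik at 0.027, Galnt4 at 0.040, Gfm2 at 0.041 and the crystallin gene Crybb1, a known microglial transcript, at 0.041, beside a spread of 0.48 for Trem2 itself. Closest to Tyrobp were Snx17 at 0.019, Necap1 at 0.024, Bmf at 0.030, Smap1 at 0.031 and Idh2 at 0.032, beside its own spread of 0.33. With 4 points these are descriptions of these libraries.

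The other genes of the pathway were described by lists. Of 80 listed entries, 50 (62.5%) reached 1 CPM in every library and none was called variable. Among the 16 other receptors listed for DAP12 or DAP10, 4 reached it, with a list median of 1.83 CPM. They were Siglech, Clec5a, Cd300c2 and Cd300ld, the last at 3.01, 19.4, 19.9 and 24.8 CPM. Klrk1 (NKG2D), a partner of Hcst, had 1, 42, 19 and 1 counts. Reads of the near-identical Sirpb1 and Pilrb genes could be lost or divided between copies, so their values are uncertain.

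Among ligands and binding partners, 8 of 12 reached 1 CPM in every library, with a median of 18.7 CPM. Apoe, a lipoprotein ligand of TREM2, gave 3044, 4197, 5175 and 2935 CPM, high in replicates 2 and 3, the libraries low in Trem2. Clu, another lipoprotein ligand, gave 49.98, 89.3, 80.5 and 50.8 CPM, with the same libraries high. The list did not share this pattern throughout. Lgals3 (25.7, 20.7, 14.4 and 33.7 CPM) and Sema6d (11.2, 8.33, 5.19 and 8.74 CPM) were instead lower in replicates 2 and 3 than in replicates 1 and 4. Pglyrp1, a ligand of TREM1, gave 10.7, 6.87, 11.2 and 0.835 CPM. Ms4a6d and Ms4a4a, of a family linked to soluble TREM2, stood at 216 ± 68.1 and 13.8 ± 6.73 CPM (SD, n = 4).

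Of 27 proximal kinases and linkers, 18 reached 1 CPM in every library, with a median of 50.4 CPM. Syk, the kinase that binds the ITAM of DAP12, gave 128, 152, 112 and 8.79 CPM, so replicate 4, the highest in Tyrobp, was far below the others (unadjusted p = 0.012 and adjusted p = 0.94 in edgeR's variability test). The SRC family kinase Lyn stood at 443 ± 51.3 CPM (SD, n = 4). Plcg2, the phospholipase downstream of Syk, gave 173, 132, 101 and 74.1 CPM, and Pik3r1, the regulatory subunit recruited by DAP10, gave 131, 319, 265 and 72.1 CPM. Plcg1 and Vav2 were near 0 in replicate 4, at 4 and 6 counts.

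Of 11 genes listed as negative regulators, 10 reached 1 CPM in every library, with a median of 96.1 CPM. Whether each of them, Cd33 included, acts as one in these mouse cells was not tested. Sirpa, an inhibitory receptor, stood at 1364 ± 329 CPM, the phosphatase genes Inpp5d (SHIP1) and Ptpn6 (SHP-1) at 466 ± 206 and 441 ± 66.7 CPM, and Cd33 at 364 ± 71.7 CPM (SD, n = 4). Inpp5d was lowest in replicate 4, at 189 CPM against 440 to 661 CPM in the others. Of 9 sheddase and gamma-secretase genes, which cut TREM2 at the membrane, 8 reached 1 CPM in every library, with a median of 134 CPM. Adam10 stood at 387 ± 51.0 CPM, Adam17 at 248 ± 41.7 and Ncstn at 357 ± 106. The median over all 9075 genes tested for variability was 33.7 CPM. Of those, 92.6% reached 1 CPM in every library, but they had passed the filter on low counts, which was not applied to the lists. Without that filter the share was 14.8% over all gene rows and 38.8% over the 21681 genes with a count in any library.

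**Figure D4:**
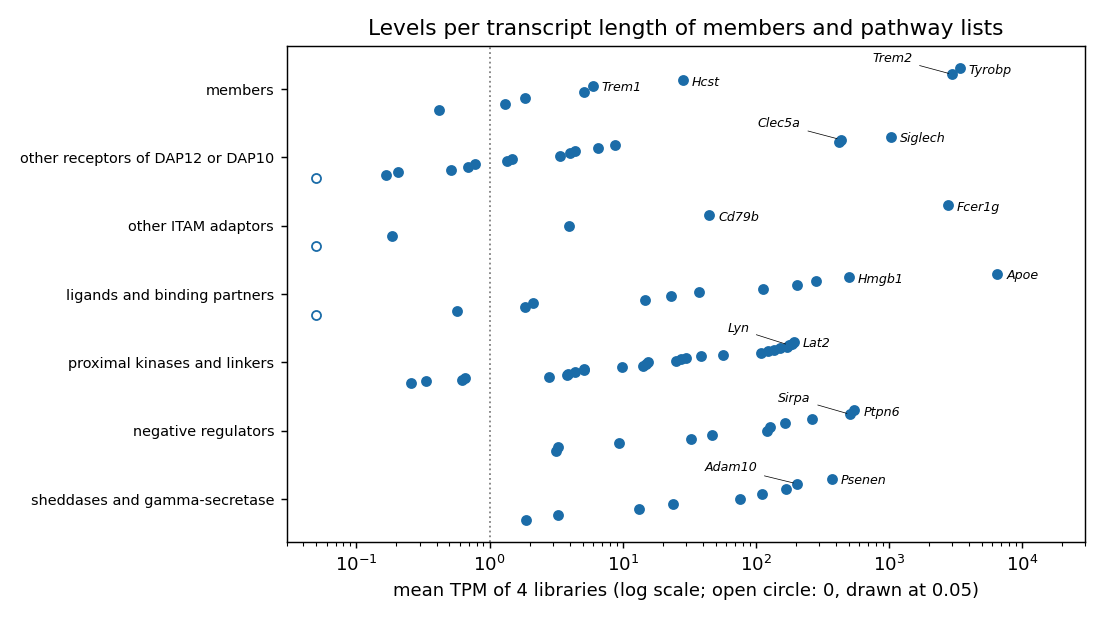
Mean TPM over the 4 libraries (log axis) of each member and of each gene in the pathway lists, one point per gene. Tyrobp at 3399, Trem2 at 2990.1 and Fcer1g at 2763 TPM lie together, Siglech lies lower at 1033, and Apoe, at 6516 TPM, lies above them.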

How the data were processed

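RNA of sorted naive microglia was sequenced in 4 libraries, made per the labels' protocols with a low-input cDNA amplification kit from total RNA. The deposited files hold raw read counts per gene symbol. Tools listed in the submitters' processing notes are HTSeq 0.11.2, SAMtools 1.16.1 and STAR 2.7.10a, with build GRCm39. What annotation and strand setting the authors used is not given in the sources used here, so reads on opposite strands may not be told apart. The 5 closing rows of unassigned reads, 20.8% ± 1.28 (SD, n = 4) of each file, were left out.

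CPM were computed on assigned totals. Lengths came from GENCODE M21 (GRCm38), whose coding transcripts matched by symbol 21142 gene rows holding 96.7% of counts. TPM used only those genes. Pair ratios used count + 0.5. Variability was fitted across all genes with edgeR 4.0.16 in R 4.3.3 (intercept only, TMM, filterByExpr with a minimum count of 10, upper-tail F test of each dispersion against the trend, Benjamini-Hochberg adjustment), and DESeq2 1.42.0 gave alternatives. The fit was also run on simulated counts with a smaller spread than these libraries, whose common biological coefficient of variation was 0.535. That run therefore does not show what the fit can call in these data. Poisson intervals at 95% and the 3-count limit cover counting error only, since the reads were amplified and carry no molecular identifiers. Promoter sequences are RefSeq's, GRCm38.p6. They were found for 5 of 8 members and not for Trem3, Treml2 and Tyrobp.

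The members, lists, pairs and naming rule (all members, pair genes, listed genes at 1 CPM or more, marker genes, the 5 genes most like Trem2 and Tyrobp, and annotated neighbours) were chosen with earlier results of these data known. Members of lists under 1 CPM that are named were chosen after their values were seen. No batch label was given. Python 3.11.15 did the remaining work.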

Additional observations from a re-analysis of the deposited data

How the results depend on the processing

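The members' mean levels moved by less than 1 SD under TMM scaling, DESeq2 size factors and CPM without the early genes. Leaving out 1 library moved Trem3 from 0.929 to 0.414 CPM (without replicate 1) and Treml4 from 1.10 to 0.517 CPM (without replicate 3). At 0.5 CPM 5 members were detected, at 5 CPM 4, and 5 without any 1 replicate. No setting called a gene variable after adjustment (edgeR, 380 to 483 genes at an unadjusted p under 0.05), robust prior estimation included, which like the CPM without early genes was chosen after seeing the data. Of 91 alternative pair ratios, 88 kept their direction. The 3 that turned were Tyrobp over Trem2 without length (-0.67), Tyrobp over Fcer1g with coding length (-0.26) and Hcst over Treml2 without length (-0.28). Lengths for the receptor sum were varied after seeing the data. With each replicate left out Tyrobp over Trem2 ranged from 0.13 to 0.33. Without length Trem2 ranked 1, Tyrobp 2, Treml2 3 and Hcst 5 among the members, and with union or coding length Trem3 ranked 6 and Treml4 7. No paired analysis was possible because the libraries form 1 group. Depth limits Trem3, Treml4 and Treml1, which had 0 to 66 counts a library.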

Other observations

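Genes with a TREM name only among their RefSeq synonyms were low and uneven. B430306N03Rik, listed in RefSeq with the synonym Treml6 and lying between Treml2 and Trem2, gave 155, 277, 257 and 14 counts in replicates 1 to 4, or 7.52, 12.3, 11.0 and 0.688 CPM. It was thus high where Treml2 was low. A530064D06Rik (synonyms pdctrem and Trem4), the coding neighbour before Trem1, had 198, 11, 2 and 2 counts, nearly all in replicate 1. 9830107B12Rik (synonym Trem5) had 1, 0, 38 and 0 counts, nearly all in replicate 3. Nfya, the coding neighbour after Treml1 and a broadly expressed transcription factor subunit, gave 50.5, 66.1, 42.7 and 22.6 CPM.

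Next to Hcst lies Nfkbid, which encodes a nuclear regulator of NF-kappa-B. It gave 21.9, 387, 278 and 2.21 CPM in replicates 1 to 4, from 45 to 8729 counts, high in replicates 2 and 3 as the early genes were. Hcst, its neighbour, stayed within 6.16 to 11.2 CPM in the same libraries. The unadjusted p of Nfkbid in edgeR's variability test was 0.00082 and its adjusted p 0.94. Lrfn3, the coding neighbour on the far side of Tyrobp and a neuronal adhesion gene, had 4, 30, 103 and 0 counts.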
